A study of Rattus norvegicus with 9 samples.

Results

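The Bcl2 family of death and survival genes was followed in primary rat Schwann cells after knockdown of Nf1 and inhibition of MEK. The 10 genes listed were Bcl2, Bcl2l1, Mcl1, Bax, Bak1, Bcl2l11, Bid, Bad, Bmf and Bbc3, and every probe set of the array that is annotated to exactly 1 of them was taken. This gave 15 probe sets of 9 genes, out of 31042 probe sets tested and 14213 genes with a probe set of their own. Bax had no probe set annotated to it alone, so it has no value here. Of the 9 genes, 5 were read by a single probe set.

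The Schwann cells came from sciatic nerve, and each of 9 cultures was hybridised to its own Affymetrix rat expression array, with 3 independent biological replicates in each of 3 groups. In the NF1 RNAi + U0126 group, cells were transfected with oligonucleotides against Nf1 and given U0126, an inhibitor of MEK. The NF1 RNAi group received the oligonucleotides without the inhibitor, and the Control RNAi group received scrambled oligonucleotides without it. All cells were therefore transfected, and RNA was taken 48 hours later. The inhibitor was thus measured in knockdown cells only, and scrambled-oligonucleotide cells given U0126 were not analysed here. The knockdown was transient, in wild-type cells, and lowers Nf1 without removing it.

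Nf1 encodes neurofibromin, which switches Ras off, and MEK is the kinase that carries the Ras signal to ERK. The Bcl2 family decides whether the outer mitochondrial membrane is opened, which commits a cell to apoptosis. Bcl2, Bcl-xL (from Bcl2l1) and Mcl1 keep the membrane closed. Bax and Bak open it, and the BH3-only proteins Bim (from Bcl2l11), Bid, Bad, Bmf and Puma (from Bbc3) tip the balance toward opening by binding survival members, and some of them Bax and Bak as well. Much of this control is exerted on the proteins: ERK phosphorylates Bim, which marks it for destruction, and kinases below Ras phosphorylate Bad, which is then held in the cytosol. The arrays measured transcripts, not proteins or cell death. Schwann cells deprived of their growth factors die by apoptosis, a route on which these genes act.

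The arrays had median intensities from 95.0 to 97.1 on the linear scale. Levels below are log2(intensity + 1), and differences are on that log2 scale, where 1 is a change of 2-fold, ± the fitted standard error (limma, n = 3 arrays per group). Every adjusted p-value below was computed by limma and corrected over all 31042 probe sets by the method of Benjamini and Hochberg. Nf1 itself was at 5.44, 5.72 and 5.39 with NF1 RNAi + U0126, at 5.39, 5.41 and 5.44 with NF1 RNAi, and at 6.65, 6.59 and 6.15 with Control RNAi. The 6 arrays of Nf1 oligonucleotides lay below all Control RNAi arrays, and NF1 RNAi lowered the transcript by a log2 difference of −1.05 ± 0.13 (adjusted p = 0.000763). Dividing-cell genes were lower in both knockdown groups than in Control RNAi. With NF1 RNAi 7 of 18 probe sets fell (38.9%, against 20.4% of all called), with NF1 RNAi + U0126 9 fell (50.0%, against 28.1%), and none rose. The median level over 11 dividing-cell genes was taken from the brightest probe set of each. It was 5.10 to 5.53 with NF1 RNAi + U0126, 5.44 to 5.92 with NF1 RNAi, and 8.70, 6.74 and 6.81 in the 3 Control RNAi arrays. Control RNAi replicate 1 stood apart as the highest of these. Calls on members that change without that array are given with it. In bulk samples, fewer cells of a kind and less RNA per cell cannot be told apart.

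Of 9 Schwann cell markers 6 had a probe set, and 5 of these lay above log2 6 in every array. With U0126 relative to NF1 RNAi, 4 of their 9 probe sets fell (44.4%, against 10.0% of all called) and none rose. The falls were of Erbb3 by 1.08, 1 of 3 Mbp probe sets by 1.05, 1 of 2 Egr2 probe sets by 0.56 and S100b by 0.38. With NF1 RNAi against Control RNAi, S100b was higher by 0.79 and Egr2 lower by 1.02 (22.2% of the list, against 20.4% of all). Fibroblast markers moved both ways. With NF1 RNAi 5 of 13 probe sets rose, all 4 of Ogn (0.68 to 0.75) and Thy1 1369651_at (0.55), and 3 fell (Col3a1, Mfap5 and 1 of 2 for Col1a1). These were 61.5% of the list, against 20.4% of all probe sets. Summed intensities here and below take the brightest probe set of each gene. The summed intensity of the fibroblast list, most of it from the collagen genes, was 12229 to 17325 with NF1 RNAi + U0126, 15481 to 16598 with NF1 RNAi and 21200 to 23336 with Control RNAi. With U0126 relative to NF1 RNAi all 4 Ogn probe sets rose again, by 1.26 to 1.42, and Thy1 1369651_at fell by 0.60. That was 38.5% of the list, against 10.0% of all. Among 6 neuron markers, Nefl and Nefm, which make up most of the list's signal, fell with NF1 RNAi (differences of −2.03 to −2.25), while the probe sets of the other 4 averaged under log2 6 in each group and 1 of 2 for Rbfox3 rose by 0.30. With U0126 relative to NF1 RNAi, Nefm rose by 1.55 and Nefl by 1.28 on 1370059_at, and Nefl 1370058_at differed by 1.20 without passing. Of the neuron probe sets 50.0% passed with NF1 RNAi and 25.0% with U0126, against 20.4% and 10.0% of all. Of 10 macrophage and leukocyte probe sets, both of Laptm5 rose with NF1 RNAi (0.60 and 0.33) and that of Cd68 rose with U0126 relative to NF1 RNAi (0.90). These calls were 20.0% and 10.0% of the list, against 20.4% and 10.0% of all. None of the 6 endothelial and mural probe sets passed in limma in any comparison (1, 1 and 0 had an unadjusted p under 0.05), and apart from the mural gene Acta2 they averaged under log2 6. Summed intensities with NF1 RNAi + U0126, NF1 RNAi and Control RNAi were 26507 to 26833, 29470 to 29615 and 18248 to 23353 for the Schwann cell list, and 3649 to 4154, 1001 to 2091 and 4533 to 7838 for the neuron list. In the same order they were 454 to 510, 421 to 436 and 364 to 399 for the macrophage and leukocyte list, and 342 to 460, 352 to 366 and 398 to 536, most of it from Acta2, for the endothelial and mural list. The part of other cells, or of these changes, in the results below was not tested.

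The stretches of 250 bases upstream of 3 members are shown because their transcripts moved in opposite ways: Bcl2l1 and Bid were lower with NF1 RNAi and higher again with U0126, while Bcl2l11 was lower with U0126. They are RefSeq sequences of assembly GRCr8, read 5′ to 3′ on the gene's strand and ending at the base before the annotated start. Capitals mark matches, on either strand, to 5 motifs: CCGGAAG (bound by ETS factors, some of which ERK phosphorylates), TGANTCA (AP-1), TGACGTCA (CREB), GTAAACA (FOXO factors) and TTCNNNGAA (STAT factors).
Bcl2l1 (chr3:161764776-161765025, minus strand): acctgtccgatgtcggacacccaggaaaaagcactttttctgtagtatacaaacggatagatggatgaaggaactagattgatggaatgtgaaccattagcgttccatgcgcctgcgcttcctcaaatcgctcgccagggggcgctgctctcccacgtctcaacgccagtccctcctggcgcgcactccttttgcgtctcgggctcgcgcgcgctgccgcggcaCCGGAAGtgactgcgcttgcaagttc
Bid (chr4:155808320-155808569, minus strand): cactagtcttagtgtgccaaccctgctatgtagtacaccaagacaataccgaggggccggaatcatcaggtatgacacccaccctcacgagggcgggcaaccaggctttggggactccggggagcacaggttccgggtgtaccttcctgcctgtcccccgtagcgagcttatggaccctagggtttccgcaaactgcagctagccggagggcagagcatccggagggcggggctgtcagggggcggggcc
Bcl2l11 (chr3:135819792-135820041, plus strand): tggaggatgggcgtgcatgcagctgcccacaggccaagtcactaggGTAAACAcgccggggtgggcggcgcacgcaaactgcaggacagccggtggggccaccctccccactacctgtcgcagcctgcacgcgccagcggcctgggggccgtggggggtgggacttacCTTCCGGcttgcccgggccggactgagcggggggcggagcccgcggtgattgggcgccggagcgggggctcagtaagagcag

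The Bcl2l1 stretch, the first of 4 overlapping or neighbouring entries for that gene, holds an ETS match that begins 26 bases before the start. The Bcl2l11 stretch holds a FOXO match at 204 and an ETS match at 82 bases before it, and the Bid stretch holds none of the 5 motifs. Of the 10 genes, 8 had an entry, 11 stretches in all. Another ETS match lies 133 bases before the start of Mcl1, and a STAT and a FOXO match lie 151 and 118 bases before that of Bad. ETS matches were present in 4 of the 11 stretches, against 7.27% of all 33469 stretches of the same length in the table. Of these 4, 2 are entries of Bcl2l1, with matches 26 and 195 bases before their starts. FOXO matches were present in 2 (3.21% of all) and STAT matches in 3 (7.67% of all), 2 of these in Bcl2l1 entries that share the same bases. No stretch held the AP-1 motif (6.34% of all) or the CREB motif (1.59% of all). A match is a run of letters and does not show that a factor binds there.

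**Figure D1:**
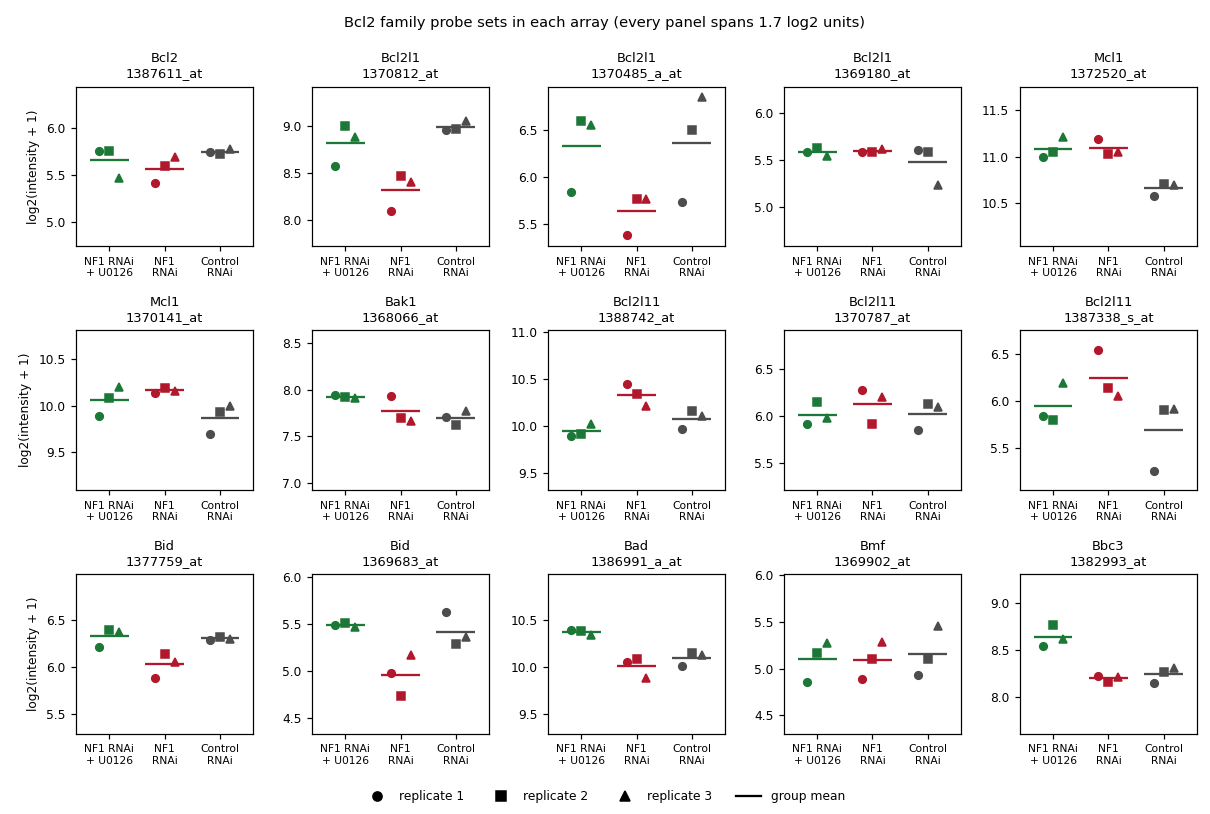
Level of each of the 15 Bcl2 family probe sets in each of the 9 arrays, as log2(intensity + 1) on the vertical axis, with 1 panel per probe set. Symbols mark the replicate number and horizontal lines the group means. All panels span the same number of log2 units, but each is centred on its own probe set, so heights do not compare between panels. Bcl2l1 1370812_at and both Bid probe sets are lowest with NF1 RNAi, Bcl2l11 1388742_at is highest there, and Bad and Bbc3 are highest with NF1 RNAi + U0126.

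With NF1 RNAi against Control RNAi, the survival gene Bcl2l1 fell, the survival gene Mcl1 rose and the BH3-only gene Bid fell. Of the 15 probe sets, 4 (26.7%) had an adjusted p under 0.05, 1 of them higher and 3 lower, and 20.4% of all probe sets passed in this comparison, 10.6% higher and 9.84% lower. The members' share was thus near that of the array as a whole. Their median difference was −0.05, against 0.02 for all probe sets, and their median absolute difference was 0.26, against 0.12. Without NF1 RNAi replicate 1 the count was 2 (13.3%, against 14.7% of all).

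With NF1 RNAi + U0126 against NF1 RNAi, Bbc3, Bad, Bid and Bcl2l1 rose and Bcl2l11 fell. Here 6 of the 15 probe sets passed (40.0%), 5 higher and 1 lower, while 10.0% of all probe sets passed, 4.45% higher and 5.58% lower. The median difference of the members was 0.10, against 0.02 for all, and the median absolute difference 0.30, against 0.10. The 15 probe sets share 9 genes and are not independent, and several of the 6 lay close to the threshold. The count was 2 without NF1 RNAi replicate 1, without NF1 RNAi replicate 2 and without NF1 RNAi + U0126 replicate 2, and 3 without NF1 RNAi + U0126 replicate 3. In these 4 fits 7.23%, 5.40%, 6.11% and 6.72% of all probe sets passed. Among the 18638 brighter probe sets (log2 6 or more in at least 3 arrays), 5 of 11 members and 17.7% of all passed.

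With NF1 RNAi + U0126 against Control RNAi, Mcl1 on probe set 1372520_at, Bbc3 and Bad were higher and no member was lower. The count was 3 of 15 (20.0%), against 28.1% of all probe sets, 14.2% higher and 13.9% lower. The median difference was 0.07, against 0.05 for all probe sets, and the median absolute difference 0.13, against 0.16. Each group of arrays enters 2 of these 3 comparisons, so the differences are not independent of each other and are given side by side. Groups whose arrays did not overlap, as described below for single members, were common on the array. This held for 8, 7 and 4 of the 15 members in the 3 comparisons, against 35.3%, 28.6% and 41.0% of all probe sets.

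**Figure D2:**
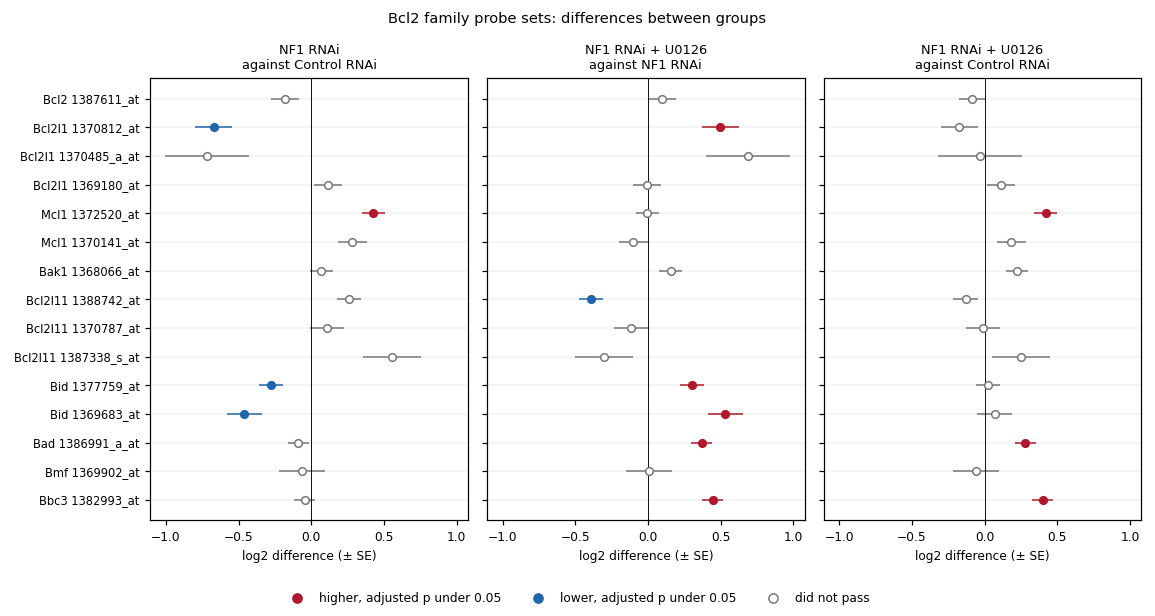
Log2 difference of the 15 Bcl2 family probe sets in the 3 comparisons (horizontal axis, error bars show the fitted standard error, n = 3 arrays per group). Filled red and blue points passed an adjusted p of 0.05 as higher and lower, and open points did not. Bcl2l1 1370812_at and the Bid probe sets lie left of 0 in the first panel and right of 0 in the second, and Mcl1 1372520_at lies right of 0 in both comparisons with Control RNAi.

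Among the survival genes, Bcl2l1 showed the largest change. Its brightest probe set, 1370812_at, was at 8.57, 9.0 and 8.88 with NF1 RNAi + U0126, at 8.09, 8.47 and 8.40 with NF1 RNAi, and at 8.96, 8.97 and 9.05 with Control RNAi. The NF1 RNAi arrays lay below all others, and the arrays with U0126 overlapped those of Control RNAi. The transcript fell by 0.67 ± 0.13 with NF1 RNAi, to 62.8% of the Control RNAi level (adjusted p = 0.00547). This call held when any array was left out and under every other setting tried, and without Control RNAi replicate 1 the difference was −0.69 (adjusted p = 0.0101). With U0126 it was higher than with NF1 RNAi alone by 0.50 ± 0.13 (adjusted p = 0.0379). That call was lost when any 1 of 7 of the 9 arrays was left out (all but Control RNAi replicate 1 and NF1 RNAi + U0126 replicate 1), with adjusted p between 0.0544 and 0.133. Against Control RNAi the level with NF1 RNAi + U0126 differed by −0.17 ± 0.13 (95% interval −0.46 to 0.11, adjusted p = 0.347).

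A dimmer Bcl2l1 probe set, 1370485_a_at, was at 5.84, 6.60 and 6.56 with NF1 RNAi + U0126, at 5.38, 5.77 and 5.77 with NF1 RNAi, and at 5.74, 6.50 and 6.85 with Control RNAi. Replicate 1 was the lowest array of each group, and 1 Control RNAi array lay within the NF1 RNAi range. Its differences were −0.72 ± 0.29 with NF1 RNAi (adjusted p = 0.12) and 0.69 ± 0.29 with U0126 (adjusted p = 0.195), neither of which passed. With the replicate number as a block both passed, at adjusted p of 0.00424 and 0.00924. Without Control RNAi replicate 1 the first was −1.03 (adjusted p = 0.014). The remaining Bcl2l1 probe set, 1369180_at, lay between 5.24 and 5.63 in all arrays, in the lower part of the array's range, and its differences were 0.12, −0.01 and 0.11 in the 3 comparisons. The gene makes a long survival form and a short form that promotes death, and the files do not say which form each probe set reads.

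Mcl1, a short-lived survival protein, went the other way. Probe set 1372520_at was at 10.99, 11.05 and 11.21 with NF1 RNAi + U0126, at 11.19, 11.03 and 11.05 with NF1 RNAi, and at 10.58, 10.71 and 10.70 with Control RNAi. All 6 arrays that received Nf1 oligonucleotides lay above all 3 Control RNAi arrays, and the arrays with and without U0126 overlapped. It rose by 0.43 ± 0.08 with NF1 RNAi, 1.34-fold (adjusted p = 0.00521), and stayed higher than Control RNAi with the inhibitor, by 0.42 ± 0.08 (adjusted p = 0.00366). Both calls held when any array was left out and under every other setting. Between NF1 RNAi + U0126 and NF1 RNAi the difference was −0.01 ± 0.08, with a 95% interval of −0.18 to 0.17. The other Mcl1 probe set, 1370141_at, was at 9.89, 10.08 and 10.20, at 10.13, 10.19 and 10.15, and at 9.70, 9.93 and 10.00 in the same order of groups. Its difference with NF1 RNAi was 0.28 ± 0.10 (adjusted p = 0.0804), which passed with the replicate number as a block (adjusted p = 0.0243). It was 0.19 without Control RNAi replicate 1 (adjusted p = 0.201). Between NF1 RNAi + U0126 and Control RNAi, the arrays of 1370141_at overlapped. The difference there was 0.18 ± 0.10 (adjusted p = 0.215), and it passed in none of 18 other fits.

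Bcl2, the founding member, was read by 1 probe set that lay between 5.41 and 5.77 in all 9 arrays, at the 36.3rd percentile of mean levels on the array. The table carries no detection calls, so whether it was expressed cannot be said. Its differences were −0.18 ± 0.10 with NF1 RNAi (adjusted p = 0.242), 0.10 ± 0.10 with U0126 (adjusted p = 0.633) and −0.08 ± 0.10 between NF1 RNAi + U0126 and Control RNAi (adjusted p = 0.556).

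Of the membrane-opening effectors, Bak1 alone had a value. It was at 7.94, 7.92 and 7.91 with NF1 RNAi + U0126, at 7.93, 7.70 and 7.67 with NF1 RNAi, and at 7.71, 7.62 and 7.77 with Control RNAi. The arrays with U0126 lay above all Control RNAi arrays by a small margin, and those with NF1 RNAi overlapped both groups. The difference between NF1 RNAi + U0126 and Control RNAi was 0.22 ± 0.08, which did not pass (adjusted p = 0.0637). It passed in 5 of 19 other fits, among them that without NF1 RNAi replicate 1 (adjusted p = 0.0289). Over all 19 the adjusted p ran from 0.00391 to 0.189. The other differences were 0.07 with NF1 RNAi and 0.16 with U0126, and neither passed.

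Among the BH3-only genes, Bbc3 was higher with the inhibitor in both comparisons that involve it. Bbc3 encodes Puma, a p53 target that binds all survival members. Its levels were 8.54, 8.76 and 8.62 with NF1 RNAi + U0126, against 8.22, 8.16 and 8.21 with NF1 RNAi and 8.15, 8.26 and 8.31 with Control RNAi. All 3 arrays with U0126 lay above the other 6, and the NF1 RNAi arrays lay within the Control RNAi range. It rose by 0.44 ± 0.07 over NF1 RNAi, 1.36-fold (adjusted p = 0.00537), and by 0.40 ± 0.07 over Control RNAi (adjusted p = 0.00309). Both calls held when any array was left out and under every other setting. With NF1 RNAi alone the difference was −0.05 ± 0.07 (95% interval −0.21 to 0.12).

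Bad, which binds Bcl-xL and Bcl2 when it is not phosphorylated, had the same order of groups. Its levels were 10.40, 10.39 and 10.34 with NF1 RNAi + U0126, 10.05, 10.09 and 9.88 with NF1 RNAi, and 10.01, 10.15 and 10.13 with Control RNAi. The arrays with U0126 again lay above all others, and the remaining groups overlapped. Bad rose by 0.37 ± 0.07 over NF1 RNAi (adjusted p = 0.012), a call that held under every setting. Over Control RNAi it rose by 0.28 ± 0.07 (adjusted p = 0.0175), which was lost without NF1 RNAi + U0126 replicate 1 (adjusted p = 0.0519), without NF1 RNAi + U0126 replicate 2 (adjusted p = 0.0537) and without all replicate 1 arrays (adjusted p = 0.0947).

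Bid, which caspase-8 cuts to link death receptors to mitochondria, followed the pattern of Bcl2l1 on both of its probe sets. Probe set 1369683_at was at 5.49, 5.51 and 5.47 with NF1 RNAi + U0126, at 4.98, 4.73 and 5.17 with NF1 RNAi, and at 5.63, 5.29 and 5.36 with Control RNAi. Probe set 1377759_at was at 6.21, 6.40 and 6.38, at 5.88, 6.14 and 6.05, and at 6.29, 6.32 and 6.30 in the same order. On both, the NF1 RNAi arrays lay below all others. With NF1 RNAi the first fell by 0.46 ± 0.12 (adjusted p = 0.0244), and with U0126 it rose by 0.53 ± 0.12 relative to NF1 RNAi (adjusted p = 0.0235). The second fell by 0.28 ± 0.08 (adjusted p = 0.0405) and rose by 0.30 ± 0.08 (adjusted p = 0.05, just under the threshold before rounding).

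Every Bid call was lost when at least 1 of several single arrays was left out, and both probe sets are dim, at the 30.4th and 44.8th percentile of the array. Without Control RNAi replicate 1 neither fall passed, with differences of −0.36 (adjusted p = 0.0584) and −0.29 (adjusted p = 0.0671). The fall of 1369683_at was also lost without NF1 RNAi replicate 1 or replicate 2, and its rise with U0126 without any 1 of those and of the 3 NF1 RNAi + U0126 arrays. Each of the calls of 1377759_at was lost for 7 of the 9 arrays left out. The direction stayed the same in all of these fits. Between NF1 RNAi + U0126 and Control RNAi, the differences were 0.07 (95% interval −0.20 to 0.34) and 0.02 (95% interval −0.16 to 0.21).

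Bcl2l11, whose product Bim binds every survival member, moved in the opposite sense. Its bright probe set, 1388742_at, was at 9.89, 9.91 and 10.02 with NF1 RNAi + U0126, at 10.44, 10.34 and 10.21 with NF1 RNAi, and at 9.96, 10.16 and 10.10 with Control RNAi. The NF1 RNAi arrays lay above all others, and the arrays with U0126 overlapped those of Control RNAi. It fell by 0.39 ± 0.08 with U0126 relative to NF1 RNAi, to 76.4% (adjusted p = 0.0179). That call was lost when either replicate 1 or replicate 2 of NF1 RNAi or of NF1 RNAi + U0126 was left out, with adjusted p between 0.0572 and 0.0693. With NF1 RNAi against Control RNAi the difference was 0.26 ± 0.08, just outside the threshold (adjusted p = 0.0574). It passed in 6 of 19 other fits, among them those of brighter probe sets (adjusted p = 0.0411) and with median centring (adjusted p = 0.0476), and over all 19 the adjusted p ran from 0.0334 to 0.299. Against Control RNAi, NF1 RNAi + U0126 cells differed by −0.13 ± 0.08 (adjusted p = 0.276).

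The other Bcl2l11 probe sets were dim. 1387338_s_at, of a kind that can match several transcripts, was at 5.84, 5.80 and 6.19 with NF1 RNAi + U0126, at 6.55, 6.14 and 6.06 with NF1 RNAi, and at 5.26, 5.91 and 5.92 with Control RNAi. The NF1 RNAi arrays lay above the Control RNAi arrays, and Control RNAi replicate 1 was the lowest of the 9. Its differences of 0.55 ± 0.20 with NF1 RNAi (adjusted p = 0.0865) and −0.30 ± 0.20 with U0126 (adjusted p = 0.438) did not pass, and the first was 0.34 without Control RNAi replicate 1 (adjusted p = 0.195). 1370787_at lay between 5.85 and 6.27 in all arrays, with overlapping groups and differences of 0.11, −0.12 and −0.01 in the 3 comparisons.

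Bmf, which is released from the cytoskeleton when cells detach, had a dim probe set between 4.86 and 5.45, at the 27.6th percentile of the array. The 3 groups overlapped, and its differences were −0.07 ± 0.16, 0.01 ± 0.16 and −0.06 ± 0.16. Of the 15 probe sets, 4 lay under log2 6 in every array (Bcl2, Bmf, Bcl2l1 1369180_at and Bid 1369683_at), 7 lay at or above it in every array, and 4 crossed it.

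Of the family's less studied relatives, 11 of 13 listed genes had 14 probe sets. With NF1 RNAi, Bcl2l2 (the survival protein Bcl-w) rose by 0.63 ± 0.12 (adjusted p = 0.00486) and Bnip3l, a receptor for the removal of mitochondria, by 0.45 ± 0.11 (adjusted p = 0.0154), while Bcl2l12 fell by 0.84 ± 0.09 (adjusted p = 0.000263). These 3 of 14 (21.4%) compare with 20.4% of all probe sets. The other Bcl2l2 probe set differed by 0.27 (adjusted p = 0.257) and the other Bnip3l probe set by 0.27 (adjusted p = 0.0851). With U0126 relative to NF1 RNAi none of the 14 passed in limma (10.0% of all did), nor had any an unadjusted p under 0.05, and the smallest p was that of Bcl2l15 (0.17 ± 0.09, adjusted p = 0.322). Relative to Control RNAi, Bcl2l2 was higher by 0.51 and Bcl2l12 lower by 0.77 in NF1 RNAi + U0126 cells (adjusted p = 0.00991 and 0.000211), 2 of 14 probe sets (14.3%, against 28.1% of all).

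Apoptosome and caspase genes, most of which act after the mitochondrial step, were measured by 15 probe sets of 10 out of 13 listed. With NF1 RNAi, 4 probe sets fell and 1 rose (33.3%, against 20.4% of all). Casp12, a rodent caspase of the endoplasmic reticulum, averaged 6.31 with NF1 RNAi and 8.02 with Control RNAi and fell by 1.72 ± 0.22 (adjusted p = 0.00077). Apaf1, the scaffold on which caspase-9 is activated, fell on both probe sets, by 0.63 ± 0.09 and 0.34 ± 0.09 (adjusted p = 0.00158 and 0.0237). Diablo, which blocks the IAP proteins, fell by 0.46 ± 0.12 (adjusted p = 0.0279), and Aifm1, a mitochondrial flavoprotein, rose by 0.24 ± 0.07 (adjusted p = 0.035). With U0126 relative to NF1 RNAi, Casp6, an executioner caspase, was the single gene to pass (6.67% of the probe sets, against 10.0% of all), higher by 0.49 ± 0.08 (adjusted p = 0.00628). Relative to Control RNAi, Casp6 was higher by 0.65, and Casp12, Apaf1 and Diablo lower by 1.91, 0.64 and 0.50, in NF1 RNAi + U0126 cells, with 5 of 15 probe sets past the threshold (33.3%, against 28.1% of all).

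Of 14 listed death receptor and IAP genes 12 had 17 probe sets, of which 2 passed with NF1 RNAi (11.8%, against 20.4% of all). Tnfrsf1a, the main TNF receptor, fell by 0.59 ± 0.15 (adjusted p = 0.0221), and Tradd, its adaptor, rose by 0.33 ± 0.08 (adjusted p = 0.023). With U0126 relative to NF1 RNAi 2 of 17 passed (11.8%, against 10.0% of all): the death receptor gene Fas rose on 2 of its 3 probe sets, by 1.11 ± 0.26 on 1384842_s_at (means 7.34 with NF1 RNAi + U0126 and 6.24 with NF1 RNAi, adjusted p = 0.0257) and by 0.78 ± 0.21 on 1397221_s_at (adjusted p = 0.0436). Both are of the _s_at kind, which can match several transcripts, and 1397221_s_at was dim (means 4.96 with NF1 RNAi + U0126 and 4.18 with NF1 RNAi). The remaining one, 1369900_at, also dim (means 4.86 and 4.72), differed by 0.13 (adjusted p = 0.363). Relative to Control RNAi, 3 of 17 probe sets passed (17.6%, against 28.1% of all): Fas 1384842_s_at and Tradd were higher by 0.80 and 0.51, and Tnfrsf1a was lower by 0.46.

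Genes whose products act on Bcl2 family members were read by 33 probe sets of 13 out of 16 listed. With NF1 RNAi, 3 fell and 1 rose (12.1%, against 20.4% of all). Rps6ka3, which encodes an ERK-activated RSK kinase, fell by 0.68 ± 0.10 and 0.60 ± 0.13 on 2 of its probe sets (adjusted p = 0.00181 and 0.01), and the remaining one differed by −0.59 ± 0.18 (adjusted p = 0.0517). Usp9x, a deubiquitinase that stabilises Mcl1 in human cells, fell on 1 of 4 probe sets, by 0.40 ± 0.07 (adjusted p = 0.00514), and the other 3 differed by −0.04 to 0.16. Btrc, a substrate receptor of a ubiquitin ligase, rose on 1 of 3 probe sets, by 0.39 ± 0.10 (adjusted p = 0.0198), and the others differed by −0.10 each. With U0126 relative to NF1 RNAi 2 fell (6.06%, against 10.0% of all): Foxo3, a transcription factor known to induce Bcl2l11 and Bbc3, fell by 0.44 ± 0.07 on its bright probe set (adjusted p = 0.00528), and a different Usp9x probe set fell by 0.23 ± 0.06 (adjusted p = 0.0432). The 2 dim Foxo3 probe sets differed by −0.02 and 0.03. Relative to Control RNAi, 7 of 33 passed (21.2%, against 28.1% of all), 1 higher (Btrc, 0.54) and 6 lower, among them Rps6ka3 (−0.89 on its most changed probe set), Foxo3 (−0.48) and Usp9x (−0.31).

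**Figure D3:**
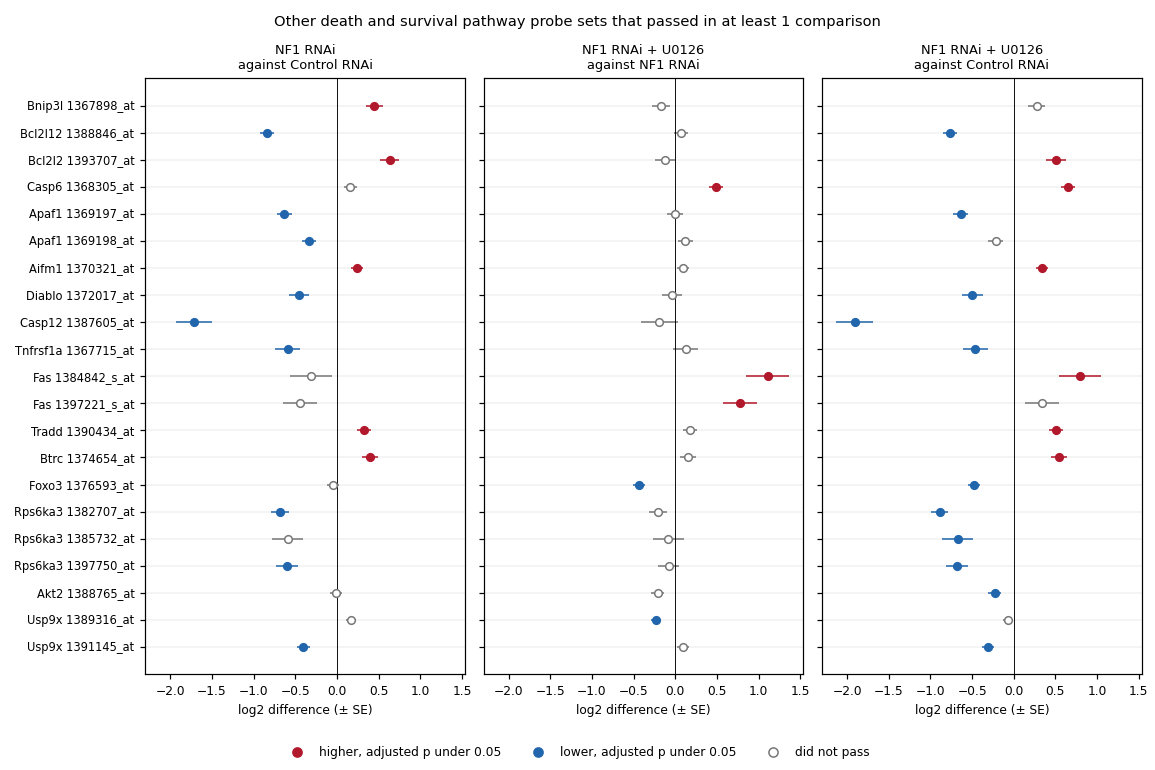
Log2 difference of the probe sets of other death and survival pathway genes that passed in at least 1 of the 3 comparisons (horizontal axis, error bars show the fitted standard error, n = 3 arrays per group). Filled red and blue points passed an adjusted p of 0.05 as higher and lower, and open points did not. Casp12 has the largest difference, 1.72 and 1.91 below Control RNAi in the NF1 RNAi and NF1 RNAi + U0126 comparisons, and Fas lies right of 0 in the U0126 comparison within knockdown cells.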

How the data were processed

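The authors deposited linear intensity values (5.62 to 25800.2), 1 for each probe set in each array, made with RMA (background correction, quantile normalization and probe summary), per the submitters' processing notes. Software version and genome build: not given in the sources used here. Of 31099 probe sets, 57 manufacturer controls were left out. A platform annotation gave exactly 1 gene to 20826 of the other 31042, several to 436 and none to 9780, with symbols updated through RefSeq (GRCr8). Groups were compared on log2(intensity + 1) by limma 3.58.1 under R 4.3.3 (eBayes on lmFit, group means over all 9 arrays, 6 residual degrees of freedom, Benjamini-Hochberg over all probe sets, adjusted p under 0.05, no fold limit). The pseudocount of 1 slightly understates changes of dim probe sets. Precision is limited by the number of arrays.

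The members and lists were chosen with earlier results of these data known. Every member probe set is named. From each of 4 lists, up to 4 passing genes per comparison with the largest change are named, or the one with the smallest p where none passed. Deviations from group means of same-numbered arrays correlated over probe sets in all 9 pairs (r from 0.14 to 0.59, against −0.48 to 0.37 for different numbers). Replicate 1 arrays had r of 0.37 to 0.59 with each other. Those of replicate 2 had 0.137 to 0.205, no higher than some pairs of replicates 2 and 3 (up to 0.368). The numbers thus set replicate 1 apart, and do not settle whether cultures 2 and 3 were paired. The main fit had no block, and a fit with the numbers as a block (4 residual degrees of freedom) was an alternative. The fit was tested on simulated arrays whose noise was independent between arrays. That test therefore does not bear on the choice to leave out the block. Python 3.11.15, pandas 2.3.3 and matplotlib 3.10.9 made tables and figures.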

Additional observations from a re-analysis of the deposited data

How the results depend on the processing

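Other settings tried were median centring, quantile normalization, array weights, no pseudocount, robust eBayes with an intensity trend, a block for replicate number, 1 probe set per gene, probe sets at log2 6 or more in 3 arrays, fits of 2 groups alone, and fits without each array or without all replicate 1 arrays. Of the 13 calls on members, 6 held under every alternative (Mcl1 1372520_at and Bbc3 in both comparisons each, Bad with U0126 relative to NF1 RNAi, and Bcl2l1 1370812_at with NF1 RNAi) and 7 were lost at least once. No called member reversed, and 38 of 825 refits of single members changed sign without passing in either fit. The replicate block added calls for Bcl2l1 1370485_a_at (−0.72 and 0.69) and Mcl1 1370141_at (0.28) and changed no other member's call. Its counts over all probe sets were 8011, 4520 and 10257 in the 3 comparisons. Without all replicate 1 arrays, 3, 7 and 2 members passed in the 3 comparisons (20.0%, 46.7% and 13.3%), against 4, 6 and 3 with all arrays. Of all probe sets 20.4%, 13.0% and 30.1% passed in these fits.

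Counts that moved by over 1.5 times were as follows. With array weights, 7 members passed with NF1 RNAi and 5 with NF1 RNAi + U0126 against Control RNAi, and 11541, 4742 and 13461 of all probe sets passed. With 1 probe set per gene fewer features were tested (14213), of which 3734, 1951 and 5047 passed. In the fit of NF1 RNAi and Control RNAi alone, 2 members passed (13.3%, against 17.4% of all probe sets). With each array left out, member counts ran from 2 to 4 with NF1 RNAi, from 2 to 6 with U0126 relative to NF1 RNAi and from 2 to 4 relative to Control RNAi. Over all probe sets they ran from 4550 to 6299, from 1676 to 4140 and from 6978 to 8923, and the lowest count in the second comparison came without NF1 RNAi replicate 2 (2049 without NF1 RNAi replicate 3, and 1897 without NF1 RNAi + U0126 replicate 2). With 3 arrays a group and dim probe sets, small changes of Bcl2, Bmf and Bid were at the limit of what could be measured.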

Other observations

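The member that differed most across the 3 groups was Bbc3 (moderated F of 22.4). The 5 probe sets whose centred profiles over the 9 arrays lay closest to it, by root mean square difference on the log2 scale, were those of Ring1 (0.051), Fam53a (0.063), RGD1359108 (0.063), Prob1 (0.065) and Pfdn5 (0.067). Ring1, a Polycomb ubiquitin ligase gene, was higher by 0.37 in NF1 RNAi + U0126 cells than in NF1 RNAi cells (adjusted p = 0.0127) and differed by 0.05 between NF1 RNAi and Control RNAi (adjusted p = 0.695). Pfdn5, a prefoldin subunit gene, was higher by 0.32 in the first comparison (adjusted p = 0.0146) and differed by 0.08 in the second (adjusted p = 0.471).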
